A study of Mus musculus with 4 samples.

Results

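The 89 genes described here encode the nuclear subunits of the mitochondrial respiratory chain and ATP synthase, with a few factors named alongside them. They were chosen by name: all mouse symbols starting with Nduf, Uqcr, Atp5, Sdha to Sdhd, or Cox4 to Cox8, with at least 100 UMIs (unique molecular identifiers, 1 per captured RNA molecule) over all barcodes. Of the 27998 genes in the count table, 92 had such a symbol, and 3 fell under the minimum: Cox7b2 and Cox8c had 0 UMIs and Cox8b had 3. The 89 comprised 36 subunits of complex I, 4 of complex II, 8 of complex III, 17 of complex IV, 15 of complex V and 9 assembly or associated factors (Ndufaf1 to Ndufaf7, Atp5s and Atp5sl). Ndufa4 and its paralogue Ndufa4l2 were counted with complex IV, where Ndufa4 is now placed despite its complex I name.

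The respiratory chain passes electrons from NADH (complex I) and succinate (complex II) through complex III to oxygen at complex IV, and the proton gradient built on the way drives ATP synthesis by complex V. Most of its subunits are encoded in the nucleus and imported, while a small core is encoded in mitochondrial DNA, so each complex except II is built from both genomes. Several complex IV subunits and the c subunit of complex V exist as paralogues, and some of these are known for expression in heart and skeletal muscle, lung or testis.

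The cells were taken from tumours grown from B16-F10, a melanoma line of the mouse, that were either Adar1 null (libraries S1 and S2) or control (libraries S3 and S4). Adar1 is an enzyme that edits adenosine to inosine in double-stranded RNA, and the genotype is that of the implanted tumour cells, while all hosts were C57BL/6 mice. In each group the same number of tumour cells was implanted with matrigel and tumours were taken on day 14, and cells selected for CD45 with magnetic beads were profiled by droplet 3′ RNA sequencing. The series lists 2 tumours of each kind and the libraries carry no further label of animal, so p-values measure the spread between 4 libraries.

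After filtering, 8569 cells remained, between 1936 and 2749 per library, with 23382804 to 32672771 UMIs per library and a median of 7618 to 8788 UMIs per cell. Cell types were gated on marker genes that include none of the 89. The gates gave 1090 melanoma cells, 1333 T cells, 4567 monocytes and macrophages and 228 conventional dendritic cells, each with at least 20 cells in every library, and these 4 types were tested. A further 465 cells passed several gates and 563 passed none, and both were left out of the types. Against the CD45 label, melanoma cells carried only 2.39 to 4.14 CPM (UMIs scaled to the same total in each library and type) of Ptprc, the CD45 gene, where T cells had 249 to 289 CPM. Adar itself was at 9.72 and 13.2 CPM in melanoma cells of the Adar1 null libraries and at 11.4 and 12.7 CPM in those of the controls, and 3′ tags do not show whether a transcript carries a disrupting edit, so this does not check the labels. Library S4 stood apart: over all cells its profile differed from the other libraries by a mean chi-square per gene of 52.9 to 86.3, against 16.4 to 21.1 among S1, S2 and S3. In S4, 71.3% of the monocyte and macrophage gate were macrophages high in C1q (subunits of the complement component), against 29.6% to 51.0% in the other libraries. The libraries shared 38 cell barcodes.

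Melanoma cells devoted the largest part of their RNA to these genes. The summed UMIs of the 89 made up 3.42% ± 0.113 (SD, n = 4 libraries) of all UMIs in melanoma cells, 2.72% ± 0.113 in T cells, 2.65% ± 0.225 in monocytes and macrophages and 2.50% ± 0.236 in conventional dendritic cells. The melanoma libraries lay between 3.32% and 3.52%, above every library of the other 3 types, the highest of which reached 2.82%. Migratory dendritic cells, a smaller class of 110 cells high in Ccr7, had the lowest share, 2.00% ± 0.0876. Per cell, the median number of UMIs from the 89 genes was 1096 in melanoma cells and 229 in T cells, at median depths of 32359 and 8577 UMIs, so that depth moved with the type. Library S4 had the lowest share in each of the 4 types, for example 2.32% in monocytes and macrophages against 2.72% to 2.82% in S1 to S3.

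**Figure D1:**
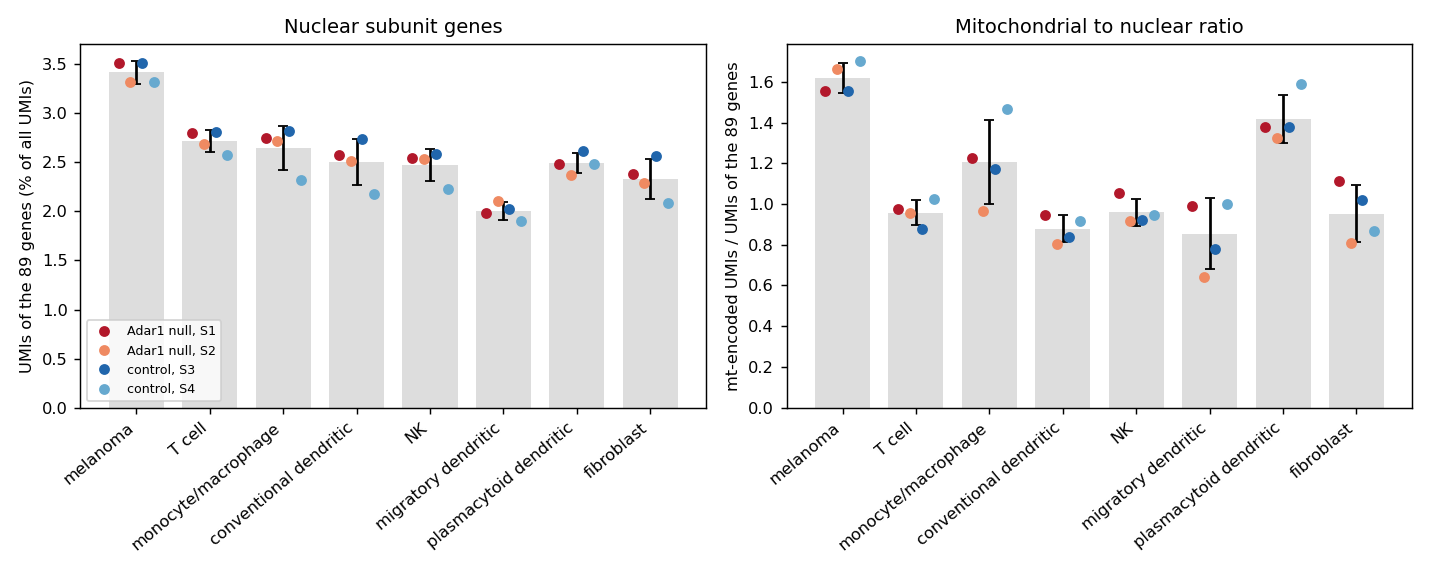
Share of all UMIs taken by the 89 genes (left, percent) and ratio of mitochondrially encoded to nuclear subunit UMIs (right) in 8 cell classes. Bars are means of 4 libraries, error bars 1 SD, and points the libraries coloured by genotype. Melanoma libraries lie above all others on the left, and melanoma, plasmacytoid dendritic cells and macrophages have the highest ratios on the right.

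The division of these UMIs among the complexes differed between types by a few percentage points. Complex IV took 29.7% to 31.0% of the summed UMIs and complex I 27.0% to 29.7% in the means of the 4 types. Complex V took 25.4% ± 0.405 in melanoma cells, 28.0% ± 0.424 in monocytes and macrophages, 30.1% ± 0.750 in conventional dendritic cells and 30.5% ± 0.475 in T cells. Complex III took 10.8% ± 0.315 in melanoma cells and 9.35% to 9.47% in the other 3 types. Complex II, with 4 subunits, took 2.15% to 2.58%. These shares were described without a test. They rested on a few genes: the 10 most abundant members held 31.0% of all UMIs of the 89, led by Cox4i1, the broadly expressed form of subunit 4 of complex IV, with 164895 UMIs, while Cox6b2, at the low end, had 239.

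Since each molecule is tagged once near its 3′ end, levels were not divided by gene length, and they are given below as CPM after TMM scaling (trimmed mean of M-values, which sets the library totals by the bulk of the genes). In complex IV, Cox4i1 had the highest mean level in each type, from 1195 CPM in melanoma cells to 1796 CPM in monocytes and macrophages. In complex II, the iron-sulfur subunit Sdhb was highest in all 4 types, with means of 276 to 509 CPM. Complex I was led by Ndufb9, an accessory subunit, in melanoma cells (870 CPM), T cells (426 CPM) and monocytes and macrophages (509 CPM), but by the accessory subunit Ndufa6 in conventional dendritic cells (473 CPM). At the low end stood 2 catalytic subunits of complex I: Ndufs1, with its iron-sulfur clusters, at 22.2 to 24.4 CPM in the 3 immune types, and Ndufv1, which binds NADH, at 18.5 CPM in melanoma cells. Within complex III the core protein Uqcrc2 was lowest in all 4 types, and within complex V the small membrane subunit Atp5k.

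Between melanoma cells and macrophages the subunits of one complex moved apart. By edgeR's quasi-likelihood test over all genes (adjusted p under 0.05, libraries as blocks), 24 of the 89 were higher and 52 lower in melanoma cells than in monocytes and macrophages. Of all genes tested, 42.3% were called higher and 40% lower, or 82.3% in either direction, so a call as such was no mark of these genes. The median log2 difference of the 89 was -0.33, beside 0.04 for all genes. Scaling matters here: without TMM the median of all genes was 0.55, the counts became 44 higher and 25 lower, and the median of the 89 became 0.18, still below that of all genes. Results below are restricted to calls made in the same direction under TMM, DESeq2's size factors, plain totals and totals without mitochondrial and ribosomal protein genes. There were 24 such genes higher and 25 lower, and 7 genes, among them Cox8a and Cox7a2l, were called in opposite directions by different scalings. The share of all genes called under every scaling is not given, here or below. Such counts are therefore not set against all genes, and no excess is read from them.

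The subunits lower in melanoma cells under every scaling came from every complex, with some catalytic subunits among them. They included Ndufv1 and Ndufs3 of the 7 nuclear core subunits of complex I, Sdha, the flavoprotein of complex II, and Sdhc, its membrane anchor. In complex III they were both core proteins, Uqcrc1 and Uqcrc2, and the Rieske iron-sulfur protein Uqcrfs1, which was all 3 of that group. In complex V they were Atp5a1 and Atp5b, the alpha and catalytic beta subunits of the F1 head, with Atp5f1 and Atp5h of the stalk and Atp5k and Atp5l of the membrane part. In complex IV Cox5a and Cox6a1 were lower. Not all core subunits were lower: Ndufs1 and Sdhb were called higher under every scaling. Most of the mitochondrially encoded subunits, counted further below, were also higher in melanoma cells. The genes lower under every scaling also held accessory subunits, Ndufa13 and Ndufa9 of complex I and Uqcrb of complex III.

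Atp5b (chr10:128083307-128090388, GRCm38) stood at 252, 231, 244 and 208 CPM in melanoma cells of S1 to S4 and at 890, 1014, 924 and 682 CPM in monocytes and macrophages. The groups did not overlap, and melanoma was lower by a log2 difference of -1.90 ± 0.08 (SE, adjusted p = 2.3e-16, edgeR). For Ndufv1 (chr19:4007499-4012755) the melanoma libraries held 20.2, 18.5, 18.3 and 17.1 CPM and the monocyte and macrophage libraries 70.1, 74.8, 77.5 and 70.4 CPM, a log2 difference of -1.97 ± 0.12 (adjusted p = 1.1e-13, edgeR). T cells, at 71.7, 72.0, 88.7 and 102 CPM, and conventional dendritic cells, at 58.5, 107, 94.4 and 86.3 CPM, were all far above the melanoma libraries. Uqcrc1 (chr9:108936648-108949641) ran from 53.0 to 68.0 CPM over the melanoma libraries and from 172 to 234 CPM in monocytes and macrophages, a log2 difference of -1.78 ± 0.09 (adjusted p = 9.4e-15, edgeR). Sdha gave 40.8, 39.5, 40.9 and 35.5 CPM in melanoma and 102, 106, 102 and 99.1 CPM in monocytes and macrophages, a log2 difference of -1.38 ± 0.09 (adjusted p = 1.0e-12, edgeR).

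The subunits higher in melanoma cells were mostly small accessory and membrane subunits and assembly factors. Under every scaling they included 6 of 29 accessory subunits of complex I (Ndufa5, Ndufa8, Ndufab1, Ndufb3, Ndufb9 and Ndufs6), 3 of 5 small subunits of complex III (Uqcr10, Uqcr11 and Uqcrq), Cox5b, Cox7a2, Cox7b and Ndufa4 of complex IV, and in complex V the c-ring paralogues Atp5g1 and Atp5g3 and the stalk subunit Atp5j. With TMM alone, complex I as a whole had 7 of 36 subunits higher and 20 lower, and most of those 20 were accessory subunits. Of all genes, 42.3% were called higher and 40% lower in that fit. Among the 9 assembly or associated factors, 6 were higher and Ndufaf3 was lower under every scaling. Ndufaf4, an assembly factor of complex I (chr4:24898083-24905001), had the largest rise: 140, 138, 150 and 150 CPM in melanoma against 42.7, 41.0, 36.8 and 38.4 CPM in monocytes and macrophages, a log2 difference of 1.86 ± 0.09 (adjusted p = 1.4e-15, edgeR). Ndufa4 (chr6:11900372-11907450) stood at 1249, 1113, 1169 and 1078 CPM in melanoma cells and at 545, 513, 517 and 385 CPM in monocytes and macrophages. Every melanoma library was above every library of the other types, and the log2 difference was 1.24 ± 0.08 (adjusted p = 1.6e-12, edgeR). Uqcrq, a small subunit of complex III, ran from 1033 to 1221 CPM in melanoma and from 526 to 634 CPM in monocytes and macrophages, a log2 difference of 0.93 ± 0.07 (adjusted p = 5.5e-12, edgeR).

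**Figure D2:**
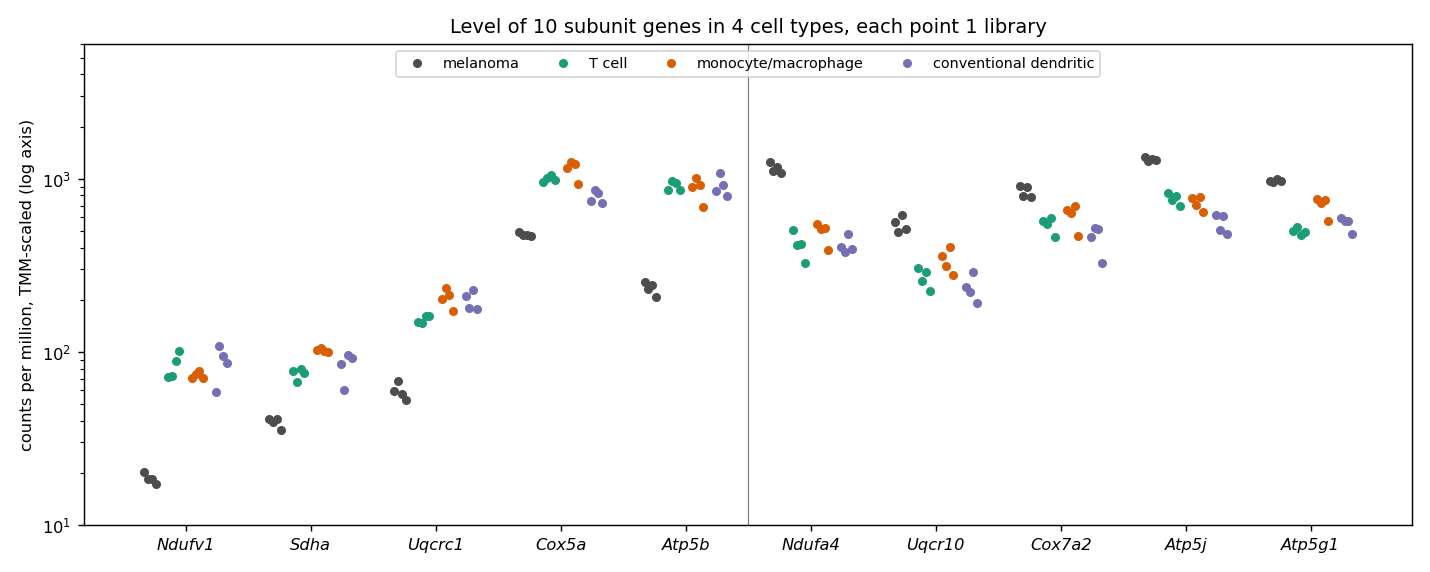
Level of 10 subunit genes (CPM after TMM scaling, log axis) in 4 cell types, each point 1 library. Left of the line melanoma cells lie lowest for Ndufv1, Sdha, Uqcrc1, Cox5a and Atp5b, and right of it they lie highest for Ndufa4, Uqcr10, Cox7a2, Atp5j and Atp5g1. The genes are a selection grouped by direction. Not drawn are the core subunits Ndufs1 and Sdhb, which were higher in melanoma cells than in macrophages, and the accessory subunits Ndufa9, Ndufa13 and Uqcrb, which were lower.

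Against T cells the split was of the same kind, though both comparisons share the melanoma libraries and are not independent. Here 31 members were higher and 41 lower in melanoma cells (77.7% of all genes were called, 39.9% higher and 37.8% lower). Under every scaling 31 were higher and 28 lower. Of the latter, 4 belonged to the 5 subunits of the F1 head (Atp5a1, Atp5b, Atp5c1 and Atp5d), 3 to the complex III core and Rieske group, and 3 to the complex I core. The division by role had exceptions on both sides: the core subunits Ndufs1 and Ndufv2 of complex I and the iron-sulfur subunit Sdhb of complex II were higher in melanoma under every scaling, and the accessory subunits Ndufa13, Ndufa9 and Ndufb7 were lower. In the other direction, 12 of 29 accessory subunits of complex I were higher in melanoma under every scaling, led by Ndufa5 at 282, 230, 259 and 210 CPM against 96.4, 91.4, 102 and 67.1 CPM in T cells (log2 difference 1.47 ± 0.09, adjusted p = 2.2e-13, edgeR). Those 12 of 29 met a stricter rule than TMM alone, by which 39.9% of all genes were called higher. The share of all genes called under every scaling is not given for these counts by role.

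**Figure D3:**
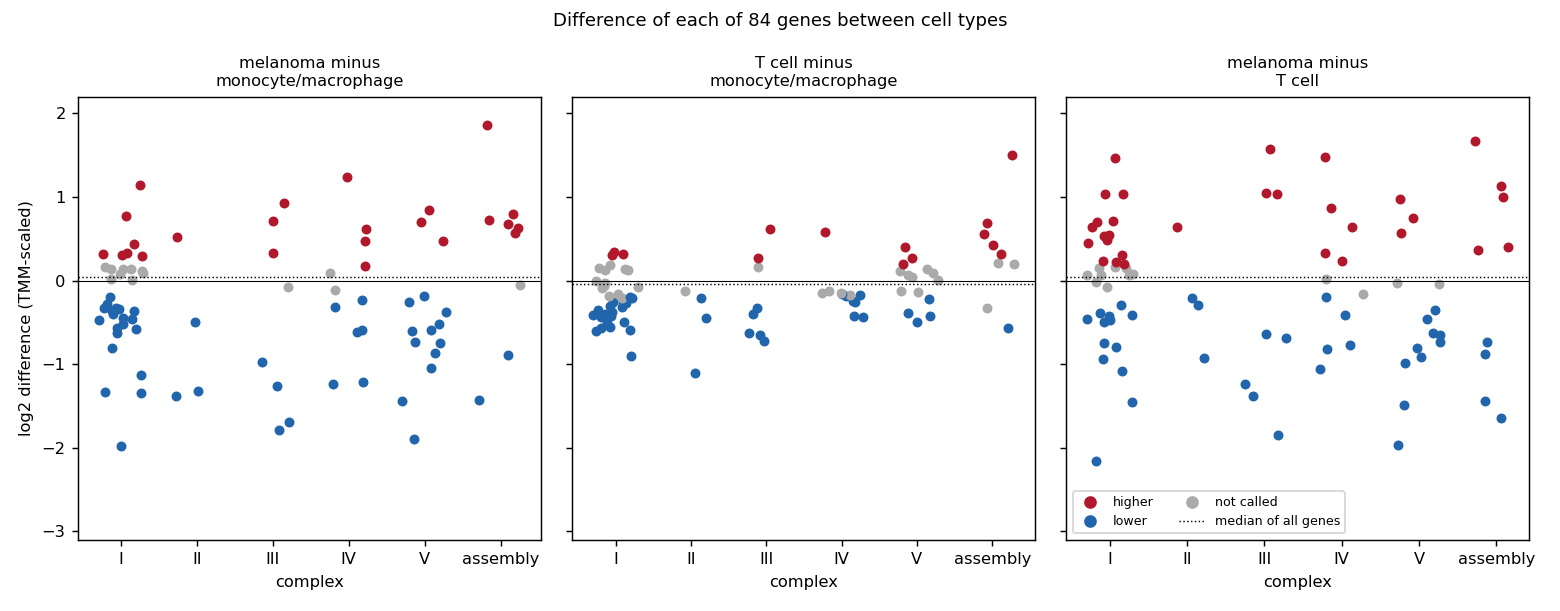
Log2 difference of each of 84 members (the 5 restricted paralogues left out) between pairs of cell types, grouped by complex; each point is 1 gene, coloured by its edgeR call, and the dotted line is the median of all genes. Complexes I, III and V each hold genes far above and far below 0 in the comparisons with melanoma cells, and the spread is narrower between T cells and macrophages.

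The size of the encoded protein was also set against the differences between types, in pairs with and without melanoma cells. Across the 89 members, Spearman's rho between coding length (longest coding sequence per gene, GENCODE M21) and the log2 difference was -0.39 for melanoma minus T cells and -0.18 for melanoma minus monocytes and macrophages, where the values over 11508 genes were 0.10 and 0.11. Leaving out the 5 restricted paralogues gave -0.40 and -0.29. For conventional dendritic cells minus monocytes and macrophages it was 0.46, against -0.01 over all genes, and for T cells minus monocytes and macrophages 0.31 against 0.01. The points are genes that share the same libraries, so these are descriptions without a test. Whether transcript length or RNA quality takes part in them was not tested.

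T cells and macrophages differed less. Of the 89, 15 were higher and 44 lower in T cells than in monocytes and macrophages (67.3% of all genes were called, 32.4% higher and 34.8% lower). Without TMM the counts were 29 and 29, while under every scaling 15 were higher and 29 lower. The genes higher in T cells under every scaling included Atp5c1 and Atp5d of the F1 head, the Rieske protein Uqcrfs1, the hinge protein Uqcrh of complex III, and 5 assembly or associated factors. Ndufaf7, a methyltransferase needed for complex I assembly, was at 20.2, 23.2, 27.0 and 24.2 CPM in T cells and 7.47, 6.83, 8.24 and 10.5 CPM in monocytes and macrophages, a log2 difference of 1.50 ± 0.16 (adjusted p = 1.3e-08, edgeR). Uqcrh was at 798 to 952 CPM in T cells and 524 to 602 CPM in monocytes and macrophages (log2 difference 0.62 ± 0.07, adjusted p = 6.7e-08, edgeR). Those lower in T cells included 11 of 29 accessory subunits of complex I and the anchor Sdhc of complex II. Sdhc stood at 70.4, 67.4, 72.8 and 68.5 CPM in T cells and 160, 152, 152 and 135 CPM in monocytes and macrophages, and melanoma cells were also low at 59.4 to 61.5 CPM. Its log2 difference between T cells and monocytes and macrophages was -1.10 ± 0.09 (adjusted p = 7.6e-11, edgeR). Atp5b and Atp5a1 had log2 differences of 0.06 ± 0.08 and 0.05 ± 0.08 between T cells and macrophages (adjusted p = 0.48 and 0.63, edgeR), and in both cases the sign turned when library S4 was left out (-0.03 and -0.06).

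Conventional dendritic cells were below macrophages for much of the chain: 9 members were higher and 44 lower (32.5% of all genes were called, 13.1% higher and 19.4% lower), with 9 and 29 under every scaling. The median of the 89 was -0.25 beside -0.17 for all genes. Among the 9 higher was Ndufa6, at 468, 367, 539 and 520 CPM in dendritic cells against 239, 249, 264 and 256 CPM in monocytes and macrophages, without overlap (log2 difference 0.91 ± 0.09, adjusted p = 1.2e-08, edgeR). Cox7a2l, which helps to join complexes III and IV into supercomplexes, was also higher, at 701, 519, 757 and 1073 CPM against 405, 399, 461 and 562 CPM (log2 difference 0.73 ± 0.10, adjusted p = 2.7e-06, edgeR), with the dendritic cells of S2 inside the macrophage range. Ndufc1, a small complex I subunit, had the largest fall outside the restricted paralogues: 95.3 to 152 CPM in dendritic cells and 205 to 289 CPM in monocytes and macrophages (log2 difference -1.05 ± 0.09, adjusted p = 4.6e-09, edgeR). T cells were in the same low range, at 119 to 149 CPM. The dendritic gate still carried 1025 to 2126 CPM of the 9 macrophage markers, where monocytes and macrophages had 19443 to 24082 CPM, and its part in these differences was not tested.

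Against the unweighted mean of the other 3 types, monocytes and macrophages had 52 members higher and 11 lower (59.7% of all genes were called, 35.3% higher and 24.4% lower). Melanoma cells had 31 and 48 (80.6%, 43.4% higher and 37.2% lower). T cells had 25 and 30 (57.8%, 31.8% higher and 26% lower), and conventional dendritic cells 21 and 27 (38.7%, 20.8% higher and 17.8% lower). The lead of the macrophages depended on scaling: with plain totals their counts were 21 higher and 31 lower. Called higher in macrophages under every scaling were 21 members, among them Sdha, Sdhc, Uqcrc1, Cox5a, Atp5a1 and Atp5b. Several of these were not called higher in macrophages alone: Atp5a1 and Atp5b were also higher under every scaling in T cells and in conventional dendritic cells, Cox5a in T cells and Uqcrc1 in conventional dendritic cells, each against a mean that includes the low melanoma value.

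Promoter sequences are given for 4 of these genes and 2 restricted paralogues, as examples of windows with and without 1 motif. The motif is GCGCA, any base, then GCGC, the palindromic element bound by nuclear respiratory factor 1 (NRF1), searched on both strands. RefSeq windows (GRCm38.p6, 250 bases before to 50 after each start) matched 71 of the 89 members with 76 windows, and 20 of those (26.3%) held it, against 4.60% of all 32851 windows. CCGGAAG, the core bound by ETS factors such as GABP, was in 22.4% against 8.86% of windows. The median number of CG dinucleotides was 19.5 per window against 7 over all, so base composition differs too. Of the 19 members with the NRF1-type motif, 6 were higher and 11 lower in melanoma cells than in monocytes and macrophages, and of the 52 matched members without it 13 were higher and 29 lower. The 250 bases before the start follow, 5′ to 3′ on the gene's strand, with the motif in capitals.
Sdha, lower in melanoma, chr13:74350241-74350490, minus strand: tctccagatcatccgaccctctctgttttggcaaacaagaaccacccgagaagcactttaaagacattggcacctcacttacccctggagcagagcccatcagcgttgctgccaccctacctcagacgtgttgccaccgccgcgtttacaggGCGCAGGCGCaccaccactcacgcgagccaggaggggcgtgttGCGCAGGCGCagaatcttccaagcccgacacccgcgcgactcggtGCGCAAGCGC
Cox6a1, lower in melanoma, chr5:115348959-115349208, minus strand: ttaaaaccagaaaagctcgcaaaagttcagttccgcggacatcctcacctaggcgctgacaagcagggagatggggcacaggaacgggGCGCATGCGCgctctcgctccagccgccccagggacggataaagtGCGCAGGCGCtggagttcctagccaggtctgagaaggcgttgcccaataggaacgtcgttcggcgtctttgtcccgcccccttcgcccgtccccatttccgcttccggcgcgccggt
Ndufaf4, higher in melanoma, chr4:24897833-24898082, plus strand: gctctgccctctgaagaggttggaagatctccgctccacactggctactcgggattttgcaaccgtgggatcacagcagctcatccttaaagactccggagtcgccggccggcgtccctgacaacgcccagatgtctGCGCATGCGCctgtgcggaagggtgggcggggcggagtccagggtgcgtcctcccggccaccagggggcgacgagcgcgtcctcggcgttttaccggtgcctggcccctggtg
Ndufa5, higher in melanoma, chr6:24527691-24527940, minus strand, 1 of its windows: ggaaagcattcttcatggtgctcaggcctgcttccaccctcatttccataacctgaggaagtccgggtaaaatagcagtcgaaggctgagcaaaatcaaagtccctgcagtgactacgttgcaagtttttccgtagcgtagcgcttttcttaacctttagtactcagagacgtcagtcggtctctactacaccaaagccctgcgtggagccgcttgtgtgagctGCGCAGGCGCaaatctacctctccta
Cox7a1, restricted paralogue, chr7:30183921-30184170, plus strand: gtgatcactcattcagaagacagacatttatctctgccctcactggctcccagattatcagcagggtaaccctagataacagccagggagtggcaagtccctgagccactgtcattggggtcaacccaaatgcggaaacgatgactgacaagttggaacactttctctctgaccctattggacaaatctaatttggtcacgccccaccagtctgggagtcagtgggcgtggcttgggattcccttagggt
Cox6b2, restricted paralogue, chr7:4753095-4753344, minus strand: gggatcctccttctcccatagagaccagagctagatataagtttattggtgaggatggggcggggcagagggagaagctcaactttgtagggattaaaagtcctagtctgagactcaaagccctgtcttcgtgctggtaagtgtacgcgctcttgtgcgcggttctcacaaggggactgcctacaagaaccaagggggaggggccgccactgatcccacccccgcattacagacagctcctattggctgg
Sdha holds 3 matches, Cox6a1 a pair, and Ndufaf4 and Ndufa5 1 each, while the windows of Cox7a1 and Cox6b2 hold none, as is the case for 52 of the 71 matched members. A match is a run of letters and not a measured binding site.

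Of the paralogues known for restricted expression, 5 passed the minimum, and they differed in how they spread over the cell classes. Cox6a2, the heart and skeletal muscle form of subunit 6a (chr7:128205435-128206366), was the most extreme. In plasmacytoid dendritic cells it had 26, 41, 39 and 23 UMIs in S1 to S4, or 810 CPM ± 195 (SD, n = 4), and it was seen in 27 of 34 cells (79.4%, exact 95% interval 62.1% to 91.3%). In T cells, taken as the background, 6 of 1333 cells (0.450%) had a UMI, although their median depth was higher (8577 against 4853 UMIs). There Cox6a2 made up 66.2% ± 3.95 of the UMIs of the pair Cox6a1 and Cox6a2, against 0.104% in T cells. This class had 6 to 14 cells per library and was described without a test. The 6 markers of the class were all detected in it, at 5519 to 9242 CPM, and all 6 fibroblast markers were at 0. The gate itself required at least 3 of the 6 class markers and set aside cells with 3 or more fibroblast markers. These levels are therefore no independent check of the class.

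Macrophages also carried Cox6a2. It had 57, 44, 110 and 141 UMIs in the C1q macrophages of S1 to S4, at 13.1 to 19.9 CPM, and in the whole monocyte and macrophage gate 341 of 4567 cells (7.47%) had a UMI. Against T cells the gate was higher by a log2 difference of 4.79 ± 0.48 (adjusted p = 7.4e-09, edgeR). In the 243 monocytes, gated on Ly6c2, Chil3, Plac8 and Ccr2, no UMI was found among 1430411, which allows up to 2.10 CPM (3 counts over the group), so C1q macrophages were at least 7.36-fold higher. The markers of plasmacytoid dendritic cells were at 1.85 to 5.62 CPM in C1q macrophages, from which the gate had left out cells with 3 or more of them.

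Ndufa4l2 (chr10:127509274-127517154), known as a target of hypoxia-inducible factor, and Cox4i2 (chr2:152753916-152765039), the lung form of subunit 4, had their highest levels in the fibroblast gate, a class of 49 cells described without a test. Of all UMIs in kept cells, that gate held 62.8% for Ndufa4l2, but monocytes and macrophages held 77.9% for Cox4i2. Ndufa4l2 had 13, 189, 63 and 234 UMIs there and was seen in 34 of 49 cells (69.4%, exact 95% interval 54.6% to 81.7%), at 205 to 866 CPM. It took 31.7% to 78.1% of the UMIs of the pair Ndufa4 and Ndufa4l2 in that gate, and 1.42% or less in each library of the 4 tested types. In T cells 2 of 1333 cells had a UMI. Within the gate, 7 cells with more than 1 UMI of Rgs5, a gene of mural cells (pericytes), held 135 of the 499 UMIs of Ndufa4l2 and 27 of the 38 of Cox4i2; this split was chosen after the values were seen. Cox4i2 was at 15.8 to 89.7 CPM in the fibroblast gate and at 7.60 to 26.8 CPM in C1q macrophages, where it had 59, 62, 108 and 82 UMIs. Monocytes and macrophages exceeded T cells by a log2 difference of 4.69 ± 0.42 (adjusted p = 7.5e-10, edgeR), and 6 T cells (0.450%) had a UMI.

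Cox6b2 (chr7:4751792-4753094), the testis form of subunit 6b, had another pattern. In conventional dendritic cells it was at 8.77, 9.99, 27.8 and 16.2 CPM, in T cells at 4.48, 3.31, 3.81 and 4.92 CPM, and in monocytes and macrophages at 1.83, 1.83, 1.86 and 1.83 CPM, 3 groups that did not overlap. The log2 difference from monocytes and macrophages was 3.14 ± 0.42 for dendritic cells (adjusted p = 2.4e-06, edgeR) and 1.18 ± 0.35 for T cells (adjusted p = 0.0045, edgeR). In melanoma cells only 3 UMIs were found. Among conventional dendritic cells of type 2, 24 of 140 (17.1%) had a UMI, and among those of type 1, 5 of 88 (5.68%), a difference that was not tested. Cox7a1, the heart and skeletal muscle form of subunit 7a, was low and spread over several classes: 191 of 4567 monocytes and macrophages (4.18%), 28 of 1090 melanoma cells (2.57%) and 12 of 1333 T cells (0.900%) had a UMI. It was at 4.07 to 5.95 CPM in monocytes and macrophages and 0.320 to 1.76 CPM in melanoma and T cells. Its log2 difference between T cells and monocytes and macrophages was -2.62 ± 0.38 (adjusted p = 1.7e-06, edgeR). Of the 290 UMIs of Cox7a1 over all barcodes, 203 were in the monocyte and macrophage gate. Without that gate Cox7a1 would have fallen under the minimum for a member. The test of this difference is therefore not independent of the choice of the gene.

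**Figure D4:**
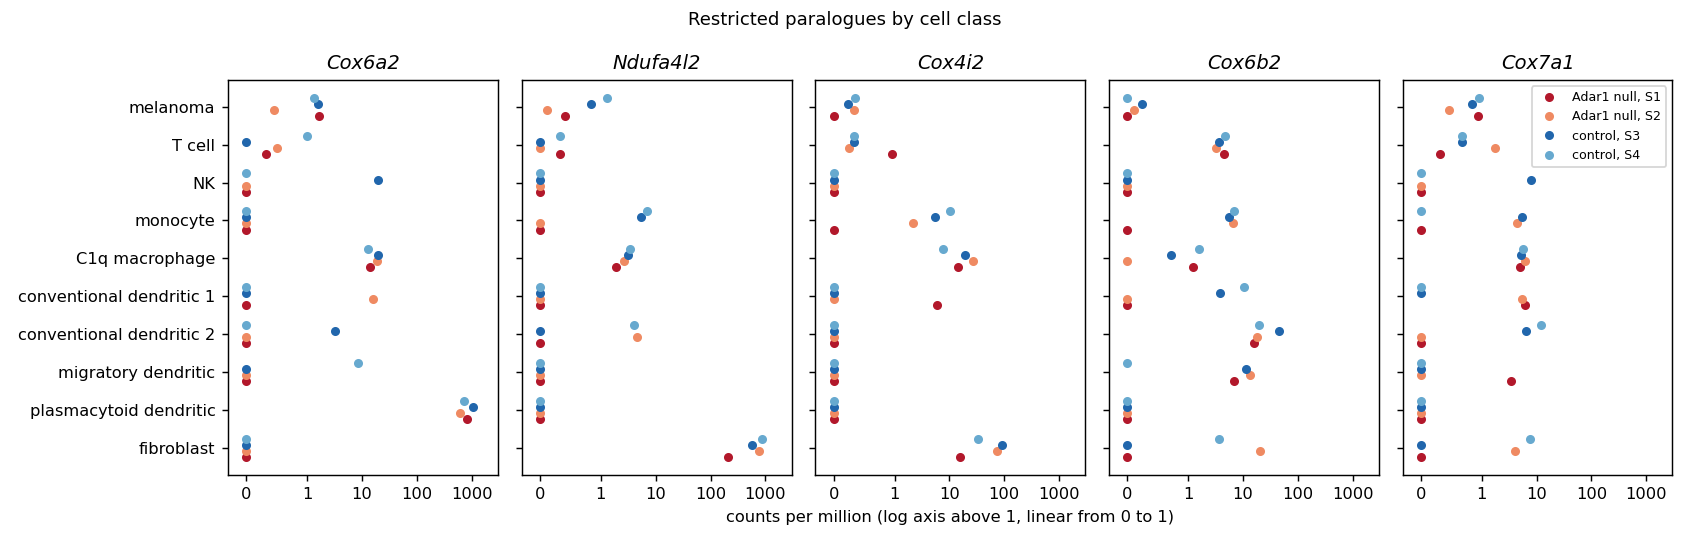
Level of 5 restricted paralogues (CPM without TMM, linear from 0 to 1 and logarithmic above) in 10 cell classes, each point 1 library coloured by genotype. Cox6a2 lies at 609 to 1071 CPM in plasmacytoid dendritic cells and Ndufa4l2 at 205 to 866 CPM in the fibroblast gate, and Cox6b2 is highest in type 2 conventional dendritic cells.

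Of the broadly expressed paralogues, those of the c ring changed places. Atp5g1, Atp5g2 and Atp5g3 encode the same mature c subunit with different import sequences. Atp5g1 took 44.3% ± 0.809 of their summed UMIs in melanoma cells, 37.5% ± 2.62 in monocytes and macrophages and 26.7% ± 1.26 in T cells. Atp5g2 took 27.6% ± 0.776, 42.1% ± 2.84 and 50.9% ± 1.50 in the same order, so that the rank of these paralogues was reversed between melanoma and T cells in all 4 libraries. Between melanoma and T cells Atp5g1 differed by 0.97 ± 0.08 and Atp5g2 by -0.64 ± 0.07 on the log2 scale (adjusted p = 4.3e-11 and 1.9e-08, edgeR). Among the subunit 7a genes, Cox7a2l took 31.4% of the UMIs of Cox7a1, Cox7a2 and Cox7a2l in melanoma cells, 55.5% in T cells and 61.5% in conventional dendritic cells, and in each of these types S4 had the highest share (34.8%, 64.1% and 76.3%).

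Within the macrophage lineage, the C1q macrophages were higher than the monocytes. Of 84 members tested, 27 were lower in monocytes and 0 higher (27.0% of all genes were called, 13.2% lower; 38 members had an unadjusted p under 0.05), and the median was -0.19 beside -0.05 for all genes. Under DESeq2 the count was 10 lower and 0 higher, and the same 10 were lower under every scaling: Atp5g2, Cox5a, Cox6a2, Ndufa12, Ndufa2, Ndufab1, Ndufc1, Sdha, Uqcr10 and Uqcrq. Ndufab1, the mitochondrial acyl carrier protein that is also a complex I subunit, was at 205, 197, 179 and 179 CPM in monocytes and 351, 387, 358 and 262 CPM in C1q macrophages (log2 difference -0.84 ± 0.12, adjusted p = 1e-05, edgeR). Sdha was at 46.8 to 62.7 CPM in monocytes and 86.4 to 105 CPM in C1q macrophages, without overlap (log2 difference -0.80 ± 0.18, adjusted p = 0.0014, edgeR). Without S1, S2 or S3 the count of lower members fell to between 12 and 14.

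Relative to the nuclear subunits, those encoded in mitochondrial DNA were most abundant in melanoma cells among the 4 types, followed by monocytes and macrophages. Per UMI of the 89 nuclear genes there were 1.62 ± 0.0749 (SD, n = 4) mitochondrially encoded UMIs in melanoma cells, 1.21 ± 0.206 in monocytes and macrophages, 0.958 ± 0.0630 in T cells and 0.878 ± 0.0662 in conventional dendritic cells. In C1q macrophages the ratio was 1.18 to 1.57 and in monocytes 0.772 to 0.925, without overlap. Within the monocyte and macrophage gate S2 had the lowest ratio (0.964) and S4 the highest (1.47). These were also the libraries with the lowest and the highest share of C1q macrophages, 29.6% and 71.3%. The same order was seen within the C1q macrophages alone (1.18 in S2, 1.57 in S4) and within the monocytes alone (0.772 and 0.925). The part of the cell mix was not tested. Cells over 10% mitochondrial UMIs had been removed, which limits the ratio. Of the 13 mitochondrially encoded subunits, 10 were higher and 2 lower in melanoma cells than in monocytes and macrophages (median log2 difference 0.71), where 42.3% of all genes were called higher and 40% lower, and with plain totals they were 12 and 1 (median 1.22). In T cells against monocytes and macrophages 0 were higher and 8 lower (median -0.34, 4 lower with plain totals), where 34.8% of all genes were called lower. Of 11 tested between monocytes and C1q macrophages, 10 were lower in monocytes (median -0.74), where 13.2% of all genes were called lower.

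Other genes of the pathway were taken from lists drawn up with earlier results known. Between melanoma cells and monocytes and macrophages, 22 of 42 tested assembly factors were higher and 6 lower (median log2 difference 0.43, beside 0.04 for all genes, of which 42.3% were called higher and 40% lower). Of 13 regulators of mitochondrial biogenesis 6 were higher and 0 lower (median 0.19). The 76 mitochondrial ribosomal proteins had 35 higher and 26 lower (median 0.16), shares near those of all genes. The 13 enzymes of the tricarboxylic acid cycle split into 4 higher and 8 lower (median -0.56), and the 13 subunits and partners outside the name rule into 4 and 7 (median -0.21, but 7 and 5 with plain totals). All 14 genes of hypoxia and glycolysis were lower in melanoma cells (median -1.63), 13 of them under DESeq2 and with plain totals. Between T cells and monocytes and macrophages, where 32.4% of all genes were called higher and 34.8% lower, 11 of those 14 were lower in T cells (median -0.77), 17 assembly factors were higher and 9 lower, and 7 regulators of biogenesis were higher and 2 lower. In that comparison the tricarboxylic acid cycle had 3 higher and 4 lower (6 and 2 with plain totals), the mitochondrial ribosome 26 and 24 (again near the shares of all genes), and the subunits and partners outside the name rule 4 and 8.

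By tumour genotype no member passed the test in any cell type. Over all cells 0 of 89 were called by edgeR (0% of 13467 genes called, 1 member with an unadjusted p under 0.05) and 0 by DESeq2, which called 6 of all genes higher and 87 lower. In melanoma cells 0 of 85 tested were called (0.0536% of all genes called, 0.0446% higher and 0.00893% lower, 5 members with an unadjusted p under 0.05, 0 by DESeq2), and in T cells 0 of 85 (0.0964% of all genes called, 0.0321% higher and 0.0643% lower, 4 under 0.05, 0 by DESeq2). Within the CD8 T cells it was 0 of 85 (0.0889% of all genes called, 0.0334% higher and 0.0556% lower, 2 under 0.05, 0 by DESeq2). In monocytes and macrophages 0 of 89 were called (0% of all genes, 0 under 0.05, 0 by DESeq2), and in conventional dendritic cells 0 of 80 (0% of all genes, 1 under 0.05, 0 by DESeq2). The members that did not enter these fits were restricted paralogues, and in dendritic cells also Atp5s, Atp5sl, Ndufaf1 and Ndufaf5. The median standard error of a log2 difference was 0.07 in melanoma cells, 0.12 in T cells and 0.18 in monocytes and macrophages.

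The members with the smallest unadjusted p are given as values only, in CPM scaled by TMM within each cell type alone, so that they differ from the levels given between types. In T cells Ndufv1 was at 70.7 and 70.4 CPM in the Adar1 null libraries and 87.0 and 99.99 CPM in the controls, a log2 difference of -0.41 ± 0.13 (adjusted p = 0.42, edgeR), and the groups did not overlap. In melanoma cells Uqcrc1 was at 74.0 and 84.5 CPM against 70.9 and 66.4 CPM (log2 difference 0.21 ± 0.08, adjusted p = 0.72, edgeR), and Ndufa9 at 49.4 and 54.8 CPM against 42.6 and 45.8 CPM (0.24 ± 0.09, adjusted p = 0.71, edgeR). Cox7a2l was among the 5 smallest in T cells, monocytes and macrophages and conventional dendritic cells, with log2 differences of -0.26 ± 0.13, -0.31 ± 0.16 and -0.55 ± 0.22 (adjusted p = 0.73, 0.86 and 0.72, edgeR), and S4 had the highest level in each. Groups without overlap were seen for 19 of 85 members in melanoma cells (33.7% of all genes), 15 of 85 in T cells (35.2%), 17 of 89 in monocytes and macrophages (35.5%), 18 of 80 in dendritic cells (35.3%) and 20 of 89 over all cells (44.4%).

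Together the members were centred near 0 in most types. Their median log2 difference, Adar1 null minus control, was 0.01 in melanoma cells, -0.01 in T cells, -0.02 in conventional dendritic cells and 0.08 in monocytes and macrophages, where 67 of 89 were positive and the median of all genes was 0.00. This last value turned with S4: without that library the median was -0.05 with 34 of 89 positive, and without S3 it was 0.22 with 79 of 89 positive. In C1q macrophages the median was 0.08 and without S4 -0.05, so the turn was also there within this subset. The genotype difference was not called different between T cells and monocytes and macrophages (0 of 89 members, 0% of 11150 genes, 2 members with an unadjusted p under 0.05, 0 by DESeq2) or between melanoma cells and monocytes and macrophages (0 of 89, 0% of 12292 genes, 0 members under 0.05, 0 by DESeq2).

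**Figure D5:**
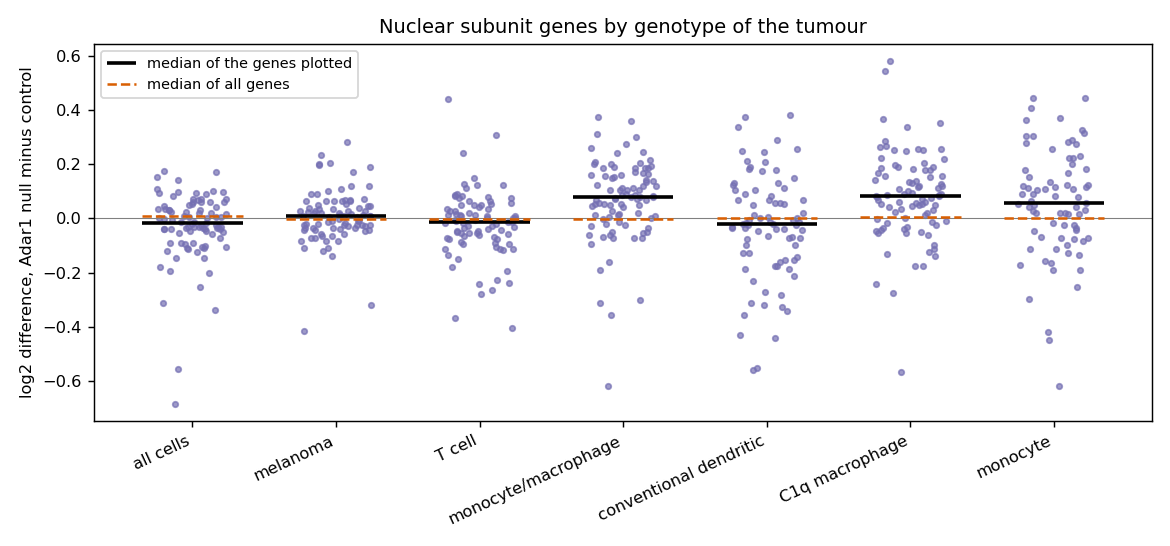
Log2 difference, Adar1 null minus control, of each member tested in 7 groups of cells, with the median of the members (black) and of all genes (dashed). The points centre near 0 in melanoma cells and T cells, and the median lies at 0.08 in monocytes and macrophages and in C1q macrophages, with no member past the test.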

How the data were processed

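UMI counts per gene and cell barcode were deposited by the authors as 1 matrix over 4 libraries. Per the submitters' processing notes the tools were Cell Ranger and Seurat 2.2.0 and the build mm10, with no multi-mapping rule stated, so members with near-identical pseudogene copies have uncertain levels. The barcode suffix gave the library and its group. Kept were barcodes with at least 500 genes, at most 10% mitochondrial UMIs and a Scrublet-type doublet score of at most 0.1 (scanpy 1.11.5; 16, 148 and 108 barcodes failed, 8569 of 8838 passed).

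Cells were gated by the number of distinct markers with a UMI: at least 5 of 9 for melanoma and for monocytes and macrophages, 2 of 3 for T cells (Cd3d, Cd3e, Cd3g), 3 for most other classes. Among all kept cells of any class, 101 were 1 marker below the minimum for melanoma and 710 for T cells. For monocytes and macrophages the count was 265, among cells that passed no gate only. Counts were summed per library and type (at least 20 cells in every library) and tested with edgeR 4.0.16 (quasi-likelihood, TMM, filterByExpr, Benjamini-Hochberg over all genes at 0.05), with the library as a block between types, and with DESeq2 1.42.0 as an alternative. SEs are the log2 difference over the square root of F. The fits were tested on simulated data. Intervals are exact (Clopper-Pearson) and, like the floors of 3 counts, cover counting error only. NK cells had 9 cells in one library and were not tested against T cells. In bulk sums, fewer cells of a class and less RNA per cell cannot be told apart.

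The members, roles, lists and tests were chosen with earlier results of these data known. Named are, per comparison, the called members with the 10 largest log2 differences in each direction, the highest and lowest per complex, 10 core subunits and the paralogue sets, and, with no call, the 5 smallest unadjusted p; others are named in lists of a role, and 1 member is not reported by name here. The comparison of monocytes with C1q macrophages and plain library totals were added after seeing the data.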

Additional observations from a re-analysis of the deposited data

Results flagged for a closer look

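With 4 libraries per type, a library was set aside for a second look where the ratio of its gap to the nearest other to the group's range was above Dixon's 95% critical value. Chance alone gives about 1 in 20, or 13 of the 260 values examined, and 12 were found.

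In monocytes and macrophages, S2 was low for mitochondrially encoded UMIs (2.62% of all UMIs, the others 3.30% to 3.40%) and for the share of complex III (8.95%, the others 9.44% to 9.54%). S2 was also the library with the lowest share of C1q macrophages in that gate, 29.6%, whose part was not tested. Within the C1q macrophages alone S2 was lowest for both as well (3.32%, the others 3.67% to 3.81%, and 8.99%, the others 9.41% to 9.68%). In the whole monocyte and macrophage gate, Ndufaf3 was high in S2 (64.8 CPM, the others up to 44.8), Cox4i1 high in S4 (1973 CPM, the others up to 1748) and Ndufaf6 low in S4 (13.4 CPM, the others from 21.5).

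In melanoma cells Atp5g1 was high in S3 (999 CPM) and Atp5g2 high in S1 (638 CPM). In T cells Ndufaf1 was high in S4 (19.3 CPM), Uqcrc2 low in S3 (133 CPM) and Cox4i2 high in S1 (0.960 CPM, from 3 UMIs). In conventional dendritic cells Ndufs3 was high in S1 (164 CPM), and Cox4i2 was found only in S1 (2.92 CPM, from 1 UMI).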

How the results depend on the processing

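No paired analysis was possible because the library names S1 to S4 carry no replicate number of the sample titles, so a replicate block could not be built between genotypes. The comparison of NK with T cells was not run, since a library held fewer than 20 NK cells.

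Genotype counts were 0 members called under every alternative run. Between the 4 types, plain library totals without TMM gave melanoma against the other types 27 lower, monocytes and macrophages against the others 21 higher and 31 lower, melanoma against monocytes and macrophages 44 higher and 25 lower, T cells against monocytes and macrophages 29 higher and 29 lower, and conventional dendritic cells against monocytes and macrophages 29 lower. Other settings moved some of these counts too, for example DESeq2 to 34 higher and 48 lower in melanoma cells and to 35 lower in conventional dendritic cells, both against monocytes and macrophages, and the fit without a low-count filter to 6 higher in the latter. Monocytes against C1q macrophages gave 10 lower with DESeq2, 14 lower and 1 higher without the library block, 1 higher without mitochondrial and ribosomal protein genes, and over left-out libraries 12 to 26 lower and 0 to 1 higher.

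With plain totals the log2 difference turned for Cox6b1 (0.055) and Cox8a (0.29) in melanoma against the other types, for Cox7a2l (0.28), Cox8a (0.19) and Atp5g2 (0.14) in melanoma against monocytes and macrophages, for Sdhb (0.044) and Cox8a (0.0045) in T cells against monocytes and macrophages, and for Cox6b1 (0.15) in melanoma against T cells. In conventional dendritic cells against monocytes and macrophages, differences near 0 turned: Ndufs1 to -0.080 with the stricter gate, Uqcrc1 to 0.0024 with DESeq2 and 0.063 with plain totals, and Atp5a1 to -0.011 and Atp5b to -0.0028 without the low-count filter. Over left-out libraries Uqcrc1 ran there from -0.099 to 0.070 and Atp5a1 from -0.012 to 0.13. Between T cells and monocytes and macrophages Atp5a1 ran from -0.061 to 0.099 and Atp5b from -0.026 to 0.12, the lowest without S4. Sdhb ran from -0.66 to 0.0087 in the genotype difference between melanoma cells and monocytes and macrophages. Complex shares and mitochondrial to nuclear ratios moved by less than 1 SD under each alternative run. The causes were not tested.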
